A study of Mus musculus with 22 samples.

Results

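The 10 genes described here lie within 20 Mb of Clock on mouse chromosome 5 and their kidney RNA differed between Clock knockout and wild-type mice: Atp10d, Stap1, Shisa3, Fryl, Pcdh7, Alb, Afm, Scarb2, Cnot6l and Nwd2. They were listed because they differ between the genotypes in these same arrays. The sizes and directions of their differences therefore describe how they were chosen. Calls and adjusted p of that difference are given below only to show how they shift with the arrays and settings used. Such calls are no support for the members. All 10 were among the 13967 genes tested, and 127 of those genes, Clock included, lie within the same 20 Mb. The groups are Clock knockout mice, labelled clock(-/-) (KO), and wild-type mice (WT), at 6 times of day, with 11 arrays per genotype. Times are zeitgeber times (ZT), in hours after the earlier lights-on. The RNA on an array was a pool from 2 or 3 mice, and there were 2 pools at each time except 1 for KO at ZT16 and 1 for WT at ZT8. All mice came from a colony founded on heterozygous breeding pairs, had been adapted for 2 weeks to 12 h of light and 12 h of dark, and then spent 30 h in constant darkness. The labels name the whole kidney as source and the left kidney as tissue, and the sources used here give no age, sex or strain. Values are log2 expression made by the authors with RMA, a method that corrects background, gives all arrays one distribution and combines the probes of a gene.

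Clock protein works as a dimer with Arntl and switches on genes that carry E-box sequences, which keeps the circadian oscillator running. Genes close to a targeted gene on the same chromosome are usually inherited together with the targeted allele. When a targeted allele made in stem cells of one mouse strain is bred into another, the flanking stretch can keep the sequence of the first strain, and genes there can then differ between mutant and wild type through their own sequence. A difference that comes from sequence in the gene itself need not follow the clock, whereas targets of the oscillator often cycle. Genotype and any such flanking sequence go together in this design, so for these 10 genes they cannot be told apart.

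The Clock probe set read from 8.73 to 9.11 log2 with a median of 8.97 in KO, against 8.47 to 9.16 with a median of 8.91 in WT. Its fitted mean was higher in KO by 0.13 ± 0.04 log2 (limma adjusted p = 0.0398), with ranges that overlap. A 24 h rhythm of Clock was called in WT (adjusted p = 0.000124) and not in KO (adjusted p = 0.301), while the test of the difference in rhythm gave an adjusted p of 0.253. Which part of the gene was deleted is not stated, so this probe set does not check the genotype labels. Array medians lay between 5.88 and 6.01 log2, and any pair of arrays correlated at 0.980 to 0.994 over all probe sets. Over all genes, 1276 of 13967 (9.14%) differed between genotypes at a Benjamini-Hochberg adjusted p under 0.05 in limma, with 5.23% higher and 3.9% lower in KO. The 2 KO pools at ZT20 stood apart in genes that are sex-dimorphic in kidney (values beside Alb). Without them, 639 genes were called over the whole table, and 7 of the 10 members. With all arrays, 10 of 10 members were called, a count that the choice of members fixes, with 5 higher and 5 lower in KO. Nothing in the labels says that pools came from separate litters, so errors here measure the spread between pools, and in whole tissue fewer cells of a type and less RNA per cell cannot be told apart.

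**Figure D1:**
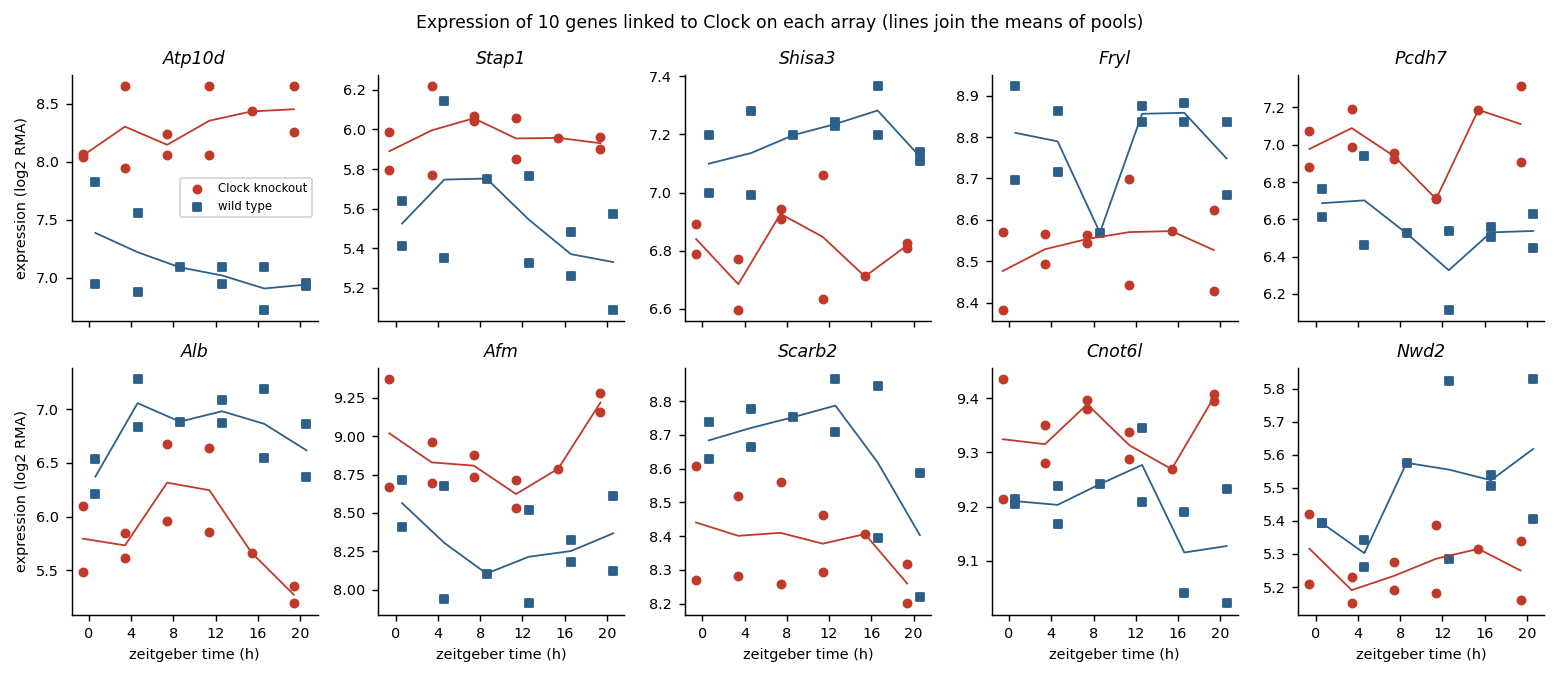
Expression of the 10 genes on each of the 22 arrays in log2 RMA, by zeitgeber time in hours. Circles are Clock knockout pools, squares are wild-type pools, and lines join the means at each time. Atp10d is the 1 gene whose knockout arrays (7.95 to 8.65) all lie above the wild-type arrays (6.72 to 7.82).

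Atp10d encodes a P4-ATPase, one of the membrane pumps that move phospholipids from one leaflet of the bilayer to the other. C57BL/6 mice are known to carry a premature stop codon in this gene that several other strains lack. The lowest KO array read 7.95 log2, the median 8.23 and the highest 8.65, against a lowest of 6.72, a median of 6.96 and a highest of 7.82 in WT. The 11 KO arrays lay above the 11 WT arrays with a gap of 0.126 log2. Of all genes tested, 0.115% had every KO array above every WT array and 0.0215% every KO array below, and Atp10d was the 1 member of 10 in either class. The fitted means over the cycle were 8.29 in KO and 7.10 in WT, a difference of 1.19 ± 0.11 log2 (± is the standard error of the fit unless SD is written), or a ratio of 2.28. The WT arrays were not alike. WT pool 2 at ZT0 read 7.82 and WT pool 2 at ZT4 read 7.56, while the other WT arrays read 7.09 or less. The KO arrays also spread, with 7 at 8.25 or less and 4 at 8.43 or more, these 4 being pool 2 at ZT4, pool 1 at ZT12, pool 1 at ZT16 and pool 2 at ZT20. Without the WT pools 2 at ZT0 and ZT4, a choice made after seeing the values, the difference was 1.32 log2.

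Scarb2 encodes a lysosomal membrane protein that carries beta-glucocerebrosidase to lysosomes. It read 8.20 to 8.61 with a median of 8.32 log2 in KO, against 8.22 to 8.87 with a median of 8.71 in WT. The groups overlapped: WT pool 2 at ZT20 read 8.22, and only 1 KO array lay below it. The difference was -0.29 ± 0.07 log2. Leaving out the KO pools at ZT20 gave -0.26 log2 and ended its call (limma adjusted p = 0.0555).

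Alb and Afm are neighbours, 0.058 Mb apart with their relative Afp between them, and they differed in opposite directions. Both encode plasma proteins made mainly by the liver: albumin, the main carrier protein of plasma, and afamin, a vitamin E-binding relative of albumin. Alb was dim in kidney, at 5.19 to 6.67 with a median of 5.85 log2 in KO, against 6.21 to 7.28 with a median of 6.86 in WT. Of the 11 KO arrays, 9 lay below every WT array, and the exceptions were pool 2 at ZT8 (6.67) and pool 2 at ZT12 (6.64). The difference was -0.97 ± 0.13 log2, a ratio of 0.511. Afm was brighter and higher in KO, at 8.53 to 9.37 with a median of 8.79 log2, against 7.91 to 8.72 with a median of 8.32 in WT. For Afm, 7 of 11 KO arrays lay above every WT array, and the difference was 0.58 ± 0.10 log2.

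The 300 bases around the starts of Alb and Afm are printed because these adjacent genes differ in opposite directions. Each sequence runs from 250 bases before to 50 bases after the RefSeq start (GRCm38.p6), for Alb at chr5:90460620-90460919 and for Afm at chr5:90518699-90518998, both on the plus strand. Capitals mark the D-box TTATGTAA or its reverse complement TTACATAA, a sequence bound by the clock-controlled factor Dbp and its relatives. Dbp takes its name from the D element of the albumin promoter. The marked runs are exact letter matches only and are not given here as that element.
Alb: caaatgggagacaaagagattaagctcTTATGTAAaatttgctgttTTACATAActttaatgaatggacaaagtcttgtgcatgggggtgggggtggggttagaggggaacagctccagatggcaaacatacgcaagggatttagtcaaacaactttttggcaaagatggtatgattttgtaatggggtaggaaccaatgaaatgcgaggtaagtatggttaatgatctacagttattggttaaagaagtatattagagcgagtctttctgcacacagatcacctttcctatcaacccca
Afm: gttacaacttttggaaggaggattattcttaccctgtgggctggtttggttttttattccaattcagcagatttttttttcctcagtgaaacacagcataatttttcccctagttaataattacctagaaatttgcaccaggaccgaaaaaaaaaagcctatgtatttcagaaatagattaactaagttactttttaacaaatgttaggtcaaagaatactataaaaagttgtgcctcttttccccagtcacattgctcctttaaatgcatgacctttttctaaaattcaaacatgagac
The Alb window held the D-box 2 times, beginning 223 bases before the start on the plus strand and 204 bases before it on the minus strand, and these matches do not overlap. Of all 32851 RefSeq promoter windows of this length, 0.938% held the D-box on either strand. The Afm window held neither the D-box nor the E-box CACGTG. RefSeq windows were found for 8 of the 10 members, 10 windows in all, and none held CACGTG, which occurs in 7.15% of all windows. Atp10d and Stap1 had no entry. A match is a run of letters and not a measured site, and no match says only that these letters are not in this window.

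Within each genotype, the correlation of Alb with Afm across arrays was negative but did not pass adjustment. Pearson's r was -0.73 over the 11 KO arrays (Spearman's rho -0.70, permutation p = 0.0117 and 0.0204) and -0.67 over the 11 WT arrays (rho -0.74, permutation p = 0.0274 and 0.0124). Among 90 such correlations, 45 pairs of members in each genotype, neither passed adjustment (adjusted p of Pearson's r = 0.197 in KO and 0.243 in WT). Leaving out the 2 arrays with Alb farthest from its median gave r = -0.71 in KO and -0.42 in WT, so the WT value rests in part on those arrays. The 1 correlation that passed in both measures was between Afm and Pcdh7 in WT (r = 0.82, rho = 0.89, adjusted permutation p = 0.0144 and 0.0414, and r = 0.83 without 2 arrays), while in KO that pair had r = 0.61. Time of day was not removed, and the permutations treated arrays of different times as exchangeable. After a mean and a 24 h wave per genotype were removed, r over all 22 arrays was -0.53 for Alb with Afm. For Afm with Pcdh7 it was 0.65. Of the 45 pairs of members, 7 were above 0.5 in this measure and 6 below -0.5, the highest being Stap1 with Afm (0.84). Neither value is therefore particular to its pair.

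**Figure D2:**
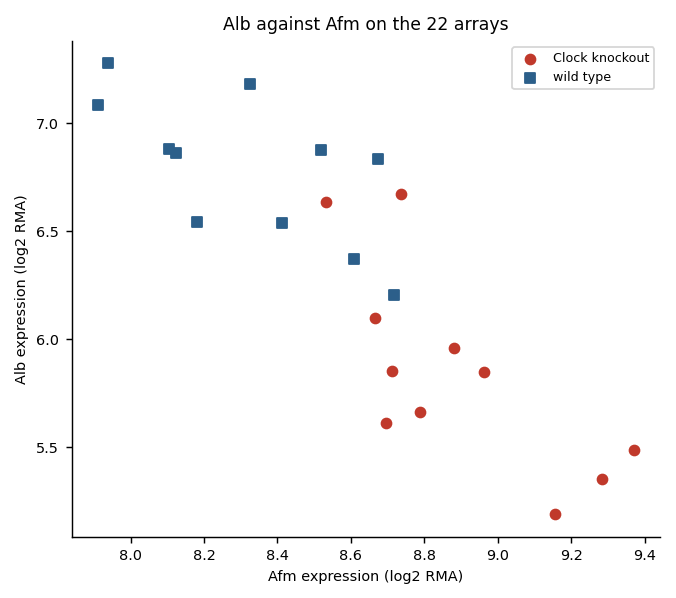
Alb expression (vertical axis) against Afm expression (horizontal axis), both in log2 RMA, on 11 Clock knockout arrays (circles) and 11 wild-type arrays (squares). Knockout arrays lie toward high Afm and low Alb, and within each genotype arrays with more Afm tend to have less Alb (r = -0.73 in knockout and -0.67 in wild type).

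Other genes of liver did not share one direction with either. Of 18 hepatocyte markers listed besides Alb and Afm, 13 were among the genes tested. Of these, 5 rose and 2 fell in KO, with a median difference of 0.03 log2 against 0.00 over all genes. The 2 that fell were Apoh and F2, and F2 averaged 5.09 log2 in KO and 5.39 in WT. The KO mean of F2 is under the filter level of 5.21 log2, so it was tested only because it is higher in WT. Its call supports nothing here, and the falling direction rests on Apoh alone. The fibrinogen chain Fgg rose by 1.40 ± 0.19 log2 (limma adjusted p = 4.73e-05) and the apolipoprotein gene Apoc3 by 0.56 ± 0.09 (adjusted p = 0.000355), while the apolipoprotein gene Apoh fell by 0.70 ± 0.16 (adjusted p = 0.00817). Apoa1 differed by 0.03 ± 0.05 log2, and Ahsg, Cps1 and Tat were not among the genes tested. The mean of the 13 markers lay between 6.87 and 7.34 log2 over KO arrays and between 6.79 and 7.24 over WT arrays, and its part in Alb and Afm was not tested. Of 10 measured genes known as sex-dimorphic in mouse kidney, 3 rose and 6 fell in KO, and the classes differed in opposite directions. Of 7 genes known to be higher in male kidney, such as Cyp4a12a (-1.93 ± 0.33 log2, limma adjusted p = 0.000669), 6 fell and Kap did not pass. All 3 known to be higher in female kidney, Slc7a12 (2.38 ± 0.30, adjusted p = 2.71e-05), Cyp4a14 (1.32 ± 0.25, adjusted p = 0.00162) and Hao2 (1.05 ± 0.08, adjusted p = 8.28e-08), rose. This division into classes was made after the values were seen. The mean of the 7 was lowest in the KO pools at ZT20, at 8.403 in pool 1 and 7.935 log2 in pool 2, against 9.18 to 10.97 on the other KO arrays and 10.50 to 11.38 on the WT arrays. Over the 3 female-high genes the mean lay between 10.66 and 11.35 log2 in KO and between 8.56 and 10.95 in WT. In those KO pools Alb also had its lowest levels, 5.19 in pool 1 and 5.35 log2 in pool 2. Without them, the Alb difference was -0.90 log2, and the part of these genes in it was otherwise not tested. Proliferation and stroma markers moved on some of the same arrays, with 0 of 3 and 0 of 5 called between genotypes in limma. The mean of the 3 proliferation genes (Mki67, Top2a and Cdk1) was 7.44 log2 in KO pool 2 at ZT20 and 6.79 in KO pool 1 at ZT0, while the remaining KO arrays lay between 5.49 and 5.90. In WT it was 6.67 in pool 1 at ZT20, 6.32 in pool 1 at ZT0 and 6.16 in pool 2 at ZT4, against 5.46 to 5.91 on the other WT arrays. Over the 5 stroma genes the mean lay between 8.07 and 8.96 log2 in KO and between 7.93 and 8.70 in WT, with its highest KO value in pool 2 at ZT20 and its highest WT value in pool 2 at ZT4. Afm was at 9.28 and 9.37 log2 on these KO arrays and at 8.61, 8.72 and 8.67 on these WT arrays, its high end in each genotype. The part of these markers in Alb and Afm was not tested.

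In size, the differences of Stap1, Pcdh7 and Shisa3 lay between those of Afm and Scarb2. Stap1 encodes an adaptor protein that acts downstream of tyrosine kinases and is best known in blood cells. It read 5.77 to 6.22 with a median of 5.96 log2 in KO, against 5.09 to 6.14 with a median of 5.48 in WT. The difference was 0.42 ± 0.08 log2. Only 1 KO array exceeded the WT range, since WT pool 2 at ZT4 read 6.14, and of the WT arrays that was the 1 inside the KO range. Of 13 leukocyte markers, 9 were measured and 0 rose. The macrophage receptor gene Csf1r fell by 0.12 ± 0.04 log2 (limma adjusted p = 0.0466). The mean of the 9 lay between 7.16 and 7.46 log2 in KO and between 7.21 and 7.52 in WT.

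Pcdh7 encodes a protocadherin, a cell adhesion protein of the cadherin superfamily. It read 6.71 to 7.32 with a median of 6.95 log2 in KO, against 6.11 to 6.94 with a median of 6.54 in WT, and 6 of 11 KO arrays lay above the WT range. The difference was 0.43 ± 0.07 log2. Shisa3, whose relatives hold back Wnt and FGF receptors during their maturation, was lower in KO. It read 6.60 to 7.06 with a median of 6.81 log2 in KO, against 6.99 to 7.37 with a median of 7.20 in WT. All but 1 of the KO arrays, pool 2 at ZT12, lay below the WT range, and the difference was -0.37 ± 0.05 log2.

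Fryl, Cnot6l and Nwd2 encode large or intracellular proteins and had the smaller differences together with Scarb2. Fryl encodes a homologue of Furry, a large scaffold known in Drosophila to work with NDR kinases in cell shape. It read 8.38 to 8.70 with a median of 8.56 log2 in KO, against 8.57 to 8.92 with a median of 8.84 in WT, and the difference was -0.25 ± 0.05 log2. This value holds for 1 of its 3 probe sets. The next one, nearly as bright, averaged 8.58 ± 0.10 in KO and 8.63 ± 0.11 in WT (SD, n = 11 each), and the dimmest averaged 7.81 ± 0.10 in KO and 7.88 ± 0.09 in WT. Their fitted differences were -0.04 and -0.06 log2 (limma adjusted p = 0.677 and 0.422). The other 9 members each had 1 probe set, so no second set of probes was available to compare.

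Cnot6l encodes a catalytic deadenylase of the CCR4-NOT complex, which shortens the poly(A) tails of mRNAs. It was the brightest member and differed least. It read 9.21 to 9.44 with a median of 9.35 log2 in KO, against 9.02 to 9.35 with a median of 9.21 in WT, and the difference was 0.14 ± 0.04 log2, a ratio of 1.10. Cnot6l was the 1 member with an E-box variant, CACGTT or its reverse complement AACGTG, in any RefSeq window, and that window is printed for this reason (chr5:96161498-96161797, minus strand, GRCm38.p6, capitals mark the variant). It is 1 of 3 starts listed for the gene.
Cnot6l: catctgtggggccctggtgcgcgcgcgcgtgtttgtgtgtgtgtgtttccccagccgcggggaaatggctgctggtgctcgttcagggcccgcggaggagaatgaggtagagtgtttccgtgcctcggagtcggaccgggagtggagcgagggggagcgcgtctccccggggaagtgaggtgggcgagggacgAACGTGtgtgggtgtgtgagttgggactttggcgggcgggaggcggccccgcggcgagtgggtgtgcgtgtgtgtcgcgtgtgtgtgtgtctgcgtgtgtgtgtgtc
The variant begins 57 bases before that start, on the strand opposite to the gene, and 4.68% of all windows hold it.

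Nwd2 encodes a protein with NACHT and WD repeat domains. It was the dimmest member in both genotypes, close to the filter level of 5.21 log2, at 5.15 to 5.42 with a median of 5.23 in KO, against 5.26 to 5.83 with a median of 5.41 in WT. The difference was -0.22 ± 0.06 log2, and 5 of 11 KO arrays lay inside the WT range. The calls of Cnot6l and Nwd2 are the least firm. Their limma adjusted p were 0.147 and 0.132 without the KO pools at ZT20, and 0.0667 and 0.0695 without the KO pools 2 at ZT8 and ZT12 and the WT pool 2 at ZT4. When arrays were dropped singly, the Nwd2 call ended in 4 of 22 cases (WT ZT8 pool 1, WT ZT12 pool 2, KO ZT12 pool 2 and KO ZT20 pool 1).

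Whether the genotype difference held over the day was tested apart from its mean, since the members were not chosen on it. The KO minus WT difference had the same sign at all 6 times in 10 of 10 members, against 14.5% of all genes, a count that choosing genes by their mean difference favours. In a limma fit of the 12 group means, 0 of 10 members had a genotype-by-time interaction, over all genes 0.00716% did, and at an unadjusted p under 0.05 the counts were 0 of 10 and 3.79%. Fitting a 24 h wave to each genotype, 0 of 10 members had a rhythm that differed between genotypes, against 0.043% of all genes. Without adjustment these were 0 of 10 and 7.78%. The limma adjusted p of Atp10d for a rhythm difference was 0.713. With so few calls over all genes, 0 of 10 is near the background, and it does not show that the differences were constant.

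The differences by time were as follows for the members with the largest values. Atp10d differed by 0.67 log2 at ZT0, 1.08 at ZT4, 1.06 at ZT8, 1.33 at ZT12, 1.52 at ZT16 and 1.51 at ZT20, each ± 0.29 or, at ZT8 and ZT16, ± 0.36. Its smallest value, at ZT0, includes the WT pool that read 7.82. Alb differed by -0.58 log2 at ZT0, -1.32 at ZT4, -0.57 at ZT8, -0.74 at ZT12, -1.20 at ZT16 and -1.34 at ZT20 (± 0.30 or 0.37). Afm stayed between 0.41 log2 at ZT12 and 0.85 at ZT20 (± 0.26). By the ratio of the smallest to the largest difference, Fryl was the least even, with -0.33 log2 at ZT0 and -0.02 ± 0.14 at ZT8, the time with 1 WT pool. None of these spreads passed the interaction test.

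**Figure D3:**
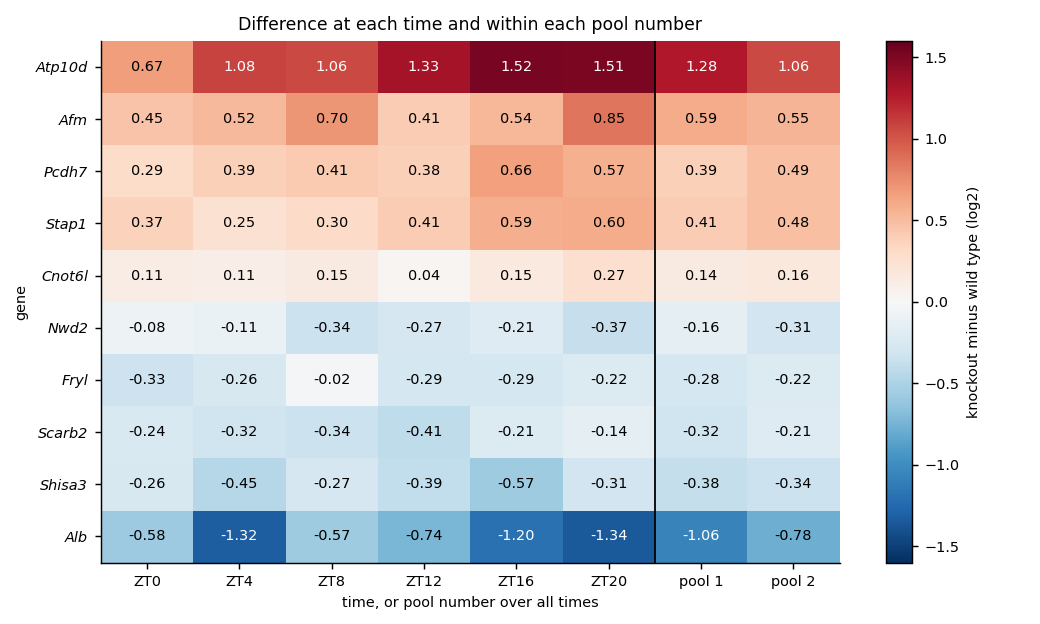
Knockout minus wild-type difference in log2 (color and printed value) of each of the 10 genes at each zeitgeber time. The last columns give the difference of plain means within pool 1 and within pool 2 arrays. Pool 2 has no knockout array at ZT16 and no wild-type array at ZT8. Each gene keeps its direction in all 8 columns, and the values nearest to 0 are those of Fryl at ZT8 (-0.02) and Cnot6l at ZT12 (0.04).

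Relative to its size, the difference varied over time by a similar amount in most members. The SD of the 6 differences divided by the size of the mean difference was 0.276 for Atp10d, 0.287 for Afm, 0.315 for Pcdh7, 0.332 for Scarb2 and Shisa3, 0.349 for Stap1 and 0.384 for Alb. It was 0.452 for Fryl, 0.544 for Nwd2 and 0.545 for Cnot6l. The median was 0.341 over the 10 members, 0.507 over the 17 other called genes within 20 Mb of Clock, 0.618 over the 1249 called genes elsewhere and 0.503 over the 86 of those that differed by 0.5 log2 or more. Among the 1249, 131 (10.5%) had an unadjusted interaction p under 0.05, against 0 of the 10 members. These sets were called on the mean difference, and the members were picked from such calls, so the medians are a description and were not tested against each other.

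**Figure D4:**
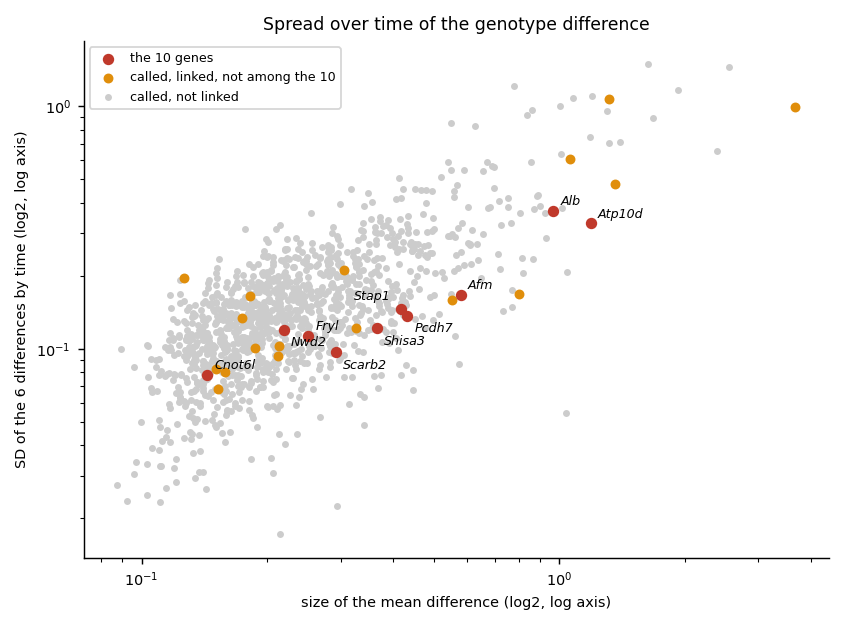
SD of the 6 knockout minus wild-type differences by time (vertical) against the size of the mean difference (horizontal), both in log2 on log axes, for all 1276 called genes. Large dark points are the 10 genes, medium points the 17 other called genes within 20 Mb of Clock and small points the 1249 called genes elsewhere. The 10 genes lie inside the cloud of the other called genes, and their SD is 0.276 (Atp10d) to 0.545 (Cnot6l) of their mean difference.

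Cycling within a genotype was also not called in any member. In KO, 0 of 10 were rhythmic, against 2.46% of all genes, and in WT 0 of 10, against 6.48%. Without adjustment, 1 member passed in KO (Alb) and 1 in WT (Stap1), against 13.8% and 22.6% of all genes. Alb had a fitted amplitude, the distance from mean to peak, of 0.45 ± 0.13 log2 in KO (limma adjusted p = 0.130) and 0.28 ± 0.13 in WT (adjusted p = 0.364). Its fitted peaks fell at ZT9.05 in KO and ZT9.69 in WT. The KO rhythm of Alb was called with the pool number as a block (adjusted p = 0.0444), with array weights (0.0279) and without KO ZT0 pool 2 (0.0289). It was not called without the KO pools at ZT20, where Alb was lowest (limma adjusted p = 0.716). Nor was it called without the KO pools 2 at ZT8 and ZT12 and the WT pool 2 at ZT4 (0.691). Stap1 had an amplitude of 0.06 ± 0.08 log2 in KO and 0.23 ± 0.08 in WT (adjusted p = 0.210 in WT).

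Pools with the same number were compared in the same way. The values by pool number are differences of plain means. Pool 2 holds no KO array at ZT16 and no WT array at ZT8, so its KO and WT means cover different times. Within pool 1 arrays and within pool 2 arrays, 10 of 10 members had the same sign, against 71.9% of all genes, which again follows in part from how members were chosen. Atp10d differed by 1.28 log2 in pool 1 and 1.06 in pool 2, Alb by -1.06 and -0.78, and Afm by 0.59 and 0.55. Stap1 differed by 0.41 and 0.48, Pcdh7 by 0.39 and 0.49, and Cnot6l by 0.14 and 0.16. For Shisa3 the values were -0.38 and -0.34, for Fryl -0.28 and -0.22, for Scarb2 -0.32 and -0.21, and for Nwd2 -0.16 and -0.31. The difference was the larger in pool 1 for 6 members. A genotype-by-pool interaction was called for 0 of 10 members and 0 of all genes in limma, with 0 of 10 and 3.31% at an unadjusted p under 0.05. For Atp10d that interaction was -0.21 ± 0.21 log2 and for Alb 0.22 ± 0.21. Fitted alone, the 12 pool 1 arrays no longer called Cnot6l and Nwd2. The 10 pool 2 arrays called 0 members, where 1 of all genes was called. Members were chosen on this difference over these same arrays, so calls within a pool number are no replication.

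A few arrays stood nearer to the other genotype. For each member an array was placed between the WT mean and the KO mean of the other arrays. KO pool 2 at ZT12 was nearer to the WT mean for 5 of 10 members (Shisa3, Fryl, Pcdh7, Alb and Afm) but not for Atp10d, at 8.05 log2. WT pool 2 at ZT4 was nearer to the KO mean for Stap1, Pcdh7, Afm and Nwd2, while Shisa3, Fryl and Alb lay on the WT side. The other arrays were nearer to the opposite genotype for 0 to 3 members. These same arrays were at the ends of their genotype in the sex-dimorphic genes. KO pool 2 at ZT12 had the highest KO mean of the male-high genes, 10.97 log2, and the lowest KO mean of the female-high genes, 10.66. WT pool 2 at ZT4 had the lowest WT mean of the male-high genes, 10.50 log2, and the highest WT mean of the female-high genes, 10.95. The part of these genes in the members' levels was not tested. Without the KO pools 2 at ZT8 and ZT12 and the WT pool 2 at ZT4, Alb differed by -1.11 log2 and Atp10d by 1.28. The calls of Cnot6l and Nwd2 then ended (limma adjusted p = 0.0667 and 0.0695). Members were chosen on this difference, so the calls that stayed are no support for them.

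The members stand among genes that mostly did not differ. Of the 127 measured genes within 20 Mb of Clock, 27 (21.3%) were called in limma, 16 higher and 11 lower in KO, against 76 of the 757 on the rest of chromosome 5 and 8.97% of the 13083 elsewhere. Without the 10 members, 17 of 117 (14.5%) were called, Clock among them. The median difference of the 127 was 0.03 log2, and the median size without direction was 0.07, against 0.06 over all genes. By distance, 9 of 42 genes were called within 5 Mb, 4 of 14 at 5 to 10 Mb, 10 of 46 at 10 to 15 Mb and 4 of 25 at 15 to 20 Mb. Called genes of 0.5 log2 or more were 9 of the 127, or 7.09%, against 0.68% of all genes, and 8 of the 9 lay above Clock in coordinate. Besides Atp10d, Alb and Afm, these were 5 Ugt2 glucuronosyltransferase genes 10.7 to 11.2 Mb from Clock and Stbd1, a glycogen-binding protein gene. Stbd1 differed by -0.55 ± 0.07 log2, at 4.96 ± 0.14 in KO and 5.52 ± 0.20 in WT (SD, n = 11 each). Its KO mean is under the filter level of 5.21 log2, so it was tested only because it is higher in WT, and its call supports nothing here. Without the KO pools at ZT20, 17 of the 127 were called.

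**Figure D5:**
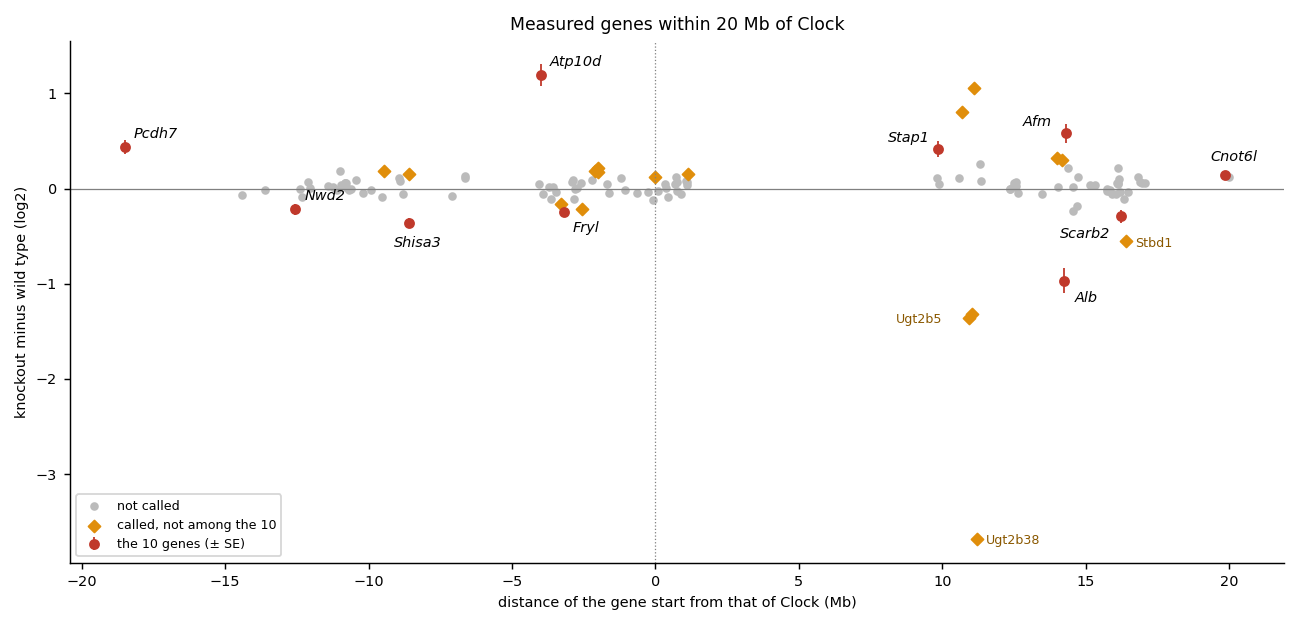
Knockout minus wild-type difference in log2 (vertical) of the 127 measured genes within 20 Mb of Clock by the distance of their start from that of Clock in Mb (horizontal). Circles with standard errors are the 10 genes, diamonds the other called genes and small grey points genes not called. Differing genes of both directions lie between genes near 0 on either side of Clock.

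Distances are between gene starts in RefSeq GRCm38.p6. Toward lower coordinates, Fryl lies 3.19 Mb from Clock, Atp10d 4.01, Shisa3 8.60, Nwd2 12.6 and Pcdh7 18.5 Mb. Toward higher coordinates, Stap1 lies 9.86 Mb away, Alb 14.3, Afm 14.3, Scarb2 16.2 and Cnot6l 19.9 Mb. Cnot6l and Pcdh7 are the called genes farthest out inside the limit, and the called genes next outside it are Rasgef1b at 23.0 Mb (0.36 ± 0.08 log2) and Slc34a2 at 23.2 Mb (0.34 ± 0.07). At the other limit of the rule, the call itself, Dancr (adjusted p = 0.0488) and Rasl11b (0.0411) were the linked genes just inside and Sult1b1 (0.0597) and Tmem165 (0.0660) just outside.

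The nearest measured gene on each side of each member gave 18 genes that are no members. Of these, 3 were called, 2 higher and 1 lower in KO. Differences of the 18 were -0.16 to 0.31 log2, with a median of 0.02. Some lie far off: Stim2 and G6pd2 are 3.72 and 4.09 Mb from Pcdh7, and Arap2 is 1.05 Mb from Nwd2. Ccng2 is 2.80 Mb from Cnot6l, with 31 protein-coding genes between. Next to Atp10d, Commd8 differed by 0.04 ± 0.04 log2 and Corin, which encodes a protease that activates natriuretic peptides, by -0.05 ± 0.06. Next to Shisa3, the flippase gene Atp8a1 was higher by 0.15 ± 0.04 log2 (limma adjusted p = 0.0233), the direction opposite to that of Shisa3. Next to Fryl, Slain2, a gene for a microtubule-binding protein, differed by -0.16 ± 0.04 log2 (limma adjusted p = 0.0219), the same direction as Fryl. Beside Alb, Gm9958 was higher by 0.31 ± 0.07 (adjusted p = 0.00771), in the direction of Afm and against Alb. A further linked gene, Cox18, which encodes a mitochondrial insertase, was higher by 0.33 ± 0.05 log2 and differed by 0.32 in pool 1 and in pool 2.

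Of 53 relatives of the members, 5 (9.43%) were called in limma, against 9.14% of all genes. Of these relatives, 2 lie within 20 Mb of Clock themselves, Atp8a1 and the kinase activator gene Mob1b (0.06 log2). Of 13 other P4-ATPase flippase and subunit genes measured, Atp8a1 rose, Atp11a (-0.24 ± 0.06 log2, adjusted p = 0.0102) fell and 11 did not pass, with a median of 0.02 log2. Of 13 other genes of the CCR4-NOT complex and its partners, Cnot11 fell by 0.12 ± 0.04 log2 (adjusted p = 0.0419) and 12 did not pass. Of 10 genes of lysosomal membranes and Scarb2 relatives or partners, the fatty acid receptor Cd36 fell by 0.52 ± 0.06 log2 (adjusted p = 2.71e-05) and Lamp2 rose by 0.14 ± 0.04 (adjusted p = 0.0232). Cd36 is also on chromosome 5, outside the 20 Mb. The 5 other Shisa genes, 4 other delta protocadherins, 7 other genes of Furry and NDR kinases and Stap2 had 0 calls in limma at an adjusted p under 0.05. Afp and Gc, the other albumin relatives, and Nwd1 were not among the genes tested.

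For each member, the gene outside the set with the most similar profile over the 22 arrays lay on another chromosome. These were Plvap for Atp10d (r = 0.92), Ggh for Stap1 (0.93), Gpx6 for Shisa3 (0.86), Ces1d for Fryl (0.85), Cpn1 for Pcdh7 (0.90), Cyp4a12b for Alb (0.92), Xpnpep2 for Afm (0.95), Lpgat1 for Scarb2 (0.77), Slc35g2 for Cnot6l (0.92) and Capn12 for Nwd2 (0.89). These r are the highest of all genes tested. They include the genotype difference that both genes share, except for Capn12, which was not called (-0.08 ± 0.05 log2, limma adjusted p = 0.300). Nwd2 with Capn12 had r = 0.87 within KO and 0.92 within WT. Within genotypes, r was 0.51 in KO and 0.81 in WT for Atp10d with Plvap, 0.89 and 0.79 for Alb with Cyp4a12b, and 0.90 and 0.88 for Afm with Xpnpep2. Plvap marks endothelium, and of 5 endothelial markers 3 rose in KO, against 5.23% of all genes. The mean of the 5 lay between 9.29 and 9.58 log2 in KO and between 9.08 and 9.40 in WT, and its part in the Atp10d difference was not tested. Markers of the distal nephron and collecting duct also differed, with 5 of 9 higher and 1 lower in KO and a median of 0.14 log2. Their mean lay between 10.57 and 10.74 log2 in KO and between 10.44 and 10.66 in WT, and its part was not tested either. Of 8 proximal tubule markers 2 rose and 1 fell, and of 4 glomerulus markers measured 0 were called in limma. For Stap1 and Cnot6l the closest linked genes were Atp8a1 (r = 0.86) and Limch1 (0.85), and for Nwd2 Kctd8 (0.76). For the other 7 members the closest was a Ugt2 gene, at r = 0.73 to 0.90.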

How the data were processed

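For 22 arrays the deposited table gives log2 expression per probe set. The submitters' processing notes name RMA as the authors' method. The sources used here state no software version or genome build. Of 35556 probe sets, the platform annotation pairs 21789 with 1 symbol and 1621 with more, and does not list 12146. RefSeq GRCm38.p6 gave positions by gene number for 21698, and it was used for order and distance only. A probe set needed a mean of at least 5.21 log2, the 30th percentile of those with 1 symbol, and the brightest stood for each gene. limma 3.58.1 in R 4.3.3 fitted a mean, cosine and sine of 24 h per genotype (16 residual degrees of freedom), or 12 group means (10 residual degrees of freedom), over all genes. Groups with a single pool were taken to have the spread of the rest. The call was an adjusted p (Benjamini-Hochberg) under 0.05. The models were tested on simulated data. Permutation tests of correlations were two-sided with 100000 resamples. RMA can compress dim genes, such as Nwd2, toward the floor. The members, gene lists and rule for named genes (members, Clock, their neighbours, the largest linked calls, the most similar genes and called relatives) were chosen with earlier results of these data known. Precision is limited by the number of arrays.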

Additional observations from a re-analysis of the deposited data

How the results depend on the processing

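Of the 10 member differences, 0 changed sign under any alternative in which they were tested. The members were chosen on this difference, so their calls here describe only how settings shift them. All 10 members stayed called without a filter, after centring arrays on their medians and after a second quantile normalization. The same held with a replicate block, with a trended robust spread and with array weights. It also held when every probe set was tested, where only the brightest probe set of each member was counted. A filter at the 50th percentile left 7 members, all called, without Stap1, Alb and Nwd2. The 2 dimmer Fryl probe sets differed by -0.0646 and -0.0372 log2. The count of members called was 9 to 10 when 1 array was left out, 8 with group means, 7 without the KO pools at ZT20 and 0 in the pool 2 arrays alone, which leave few degrees of freedom. Linked genes called were 27, or 21 to 30 when 1 array was left out, 17 without the KO pools at ZT20, 17 in pool 1 alone and 0 in pool 2 alone. Genes called over the whole table were 1276, or 903 to 1850 when 1 array was left out (without pool 1 and without pool 2 of WT ZT4), 823 with group means, 2351 with array weights, 639 without the KO pools at ZT20, 565 in pool 1 alone and 1 in pool 2 alone. Members rhythmic in KO were 0 as reported and 0 to 1 when 1 array was left out. That count was 1 with the pool number as a replicate block and 1 with array weights, and the gene was Alb in each case. Interaction with time, rhythm difference, rhythm in WT and interaction with pool had 0 members called throughout, also 0 to 0 when 1 array was left out. Whether the pool numbers pair the samples is not settled by these values. Of 45 pairs of groups, 25 had pool differences that correlated above 0.1 (median 0.119, lowest -0.411, highest 0.548). The replicate block changed no other call of a member. The cause of these shifts was not tested. Dim members leave little room above the floor of RMA, which limits Nwd2, Alb in KO and Stap1 in WT.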
